A study of Homo sapiens with 2 samples.

Results

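Cells that divide build a kinetochore on each centromere, attach it to spindle microtubules and then destroy the inhibitors of anaphase. The RNAs for this machinery were described here in MOLM-13, a human cell line from acute myeloid leukemia (AML) with a KMT2A::MLLT3 fusion. The set holds 54 genes named by symbol, of 50868 genes in the deposited table, and each symbol was found. The genes cover 2 chromosome markers of proliferating cells, 10 centromere and inner kinetochore genes, 9 outer kinetochore genes, 5 checkpoint genes and 6 genes of mitotic kinases and the chromosomal passenger complex. The others are 9 kinesin motors, 5 spindle assembly genes, 3 cytokinesis genes and 5 mitotic exit genes.

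RNA-seq was performed on 1 library of cells given a control vector (Vector, or OE-Control) and 1 library of cells with over-expression of UNC5B (OE-UNC5B). UNC5B is a netrin receptor. Both groups are the same cell line in the same medium with fetal bovine serum. According to the methods, the construct drives UNC5B from a CMV promoter with a FLAG tag and mCherry, and infected cells were selected with puromycin. The comparison addresses whether genes of adhesion and proliferation differ when UNC5B is overexpressed. Each group is 1 library, so differences have no replicate check, edgeR could not be fitted to test the conditions, and the intervals given below are 95% Clopper-Pearson intervals of the reads, which cover counting error only.

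UNC5B, on chromosome 10 from 71212570 to 71302864 of GRCh38, was counted at 0 reads in Vector and at 0 in OE-UNC5B. A count of 0 allows a level of up to 0.219 CPM (counts per 1000000 counted reads) for Vector, and 0.192 CPM for OE-UNC5B. Whether reads from the construct were counted is not given in the sources used here, and if they were not, this limit covers the cells' own UNC5B alone. As counted, the value goes against the over-expression label, so that library goes by its label here, as the UNC5B-labelled library. With 0 reads in both, UNC5B does not show which library is which, and every direction given here rests on the column labels and would turn if these were exchanged. The libraries held 13715566 and 15637137 counted reads. Of 12 myeloid leukemia markers, 11 were tested and CD34 was at 0 reads in both. The summed level of the list was 5010 CPM in Vector and 2840 CPM in the UNC5B-labelled library, in which LYZ and MPO had log2 fold changes of -1.36 and -1.35, and MEIS1 and PTPRC of 0.90 and 0.73. LYZ gave 51742 of the 68688 reads of the list in Vector and 23700 of 44420 in the other library, and 8 of the 11 tested markers were above 0, with a median of 0.16. Of 10 endothelial markers, 8 were at 0 reads in both libraries, among them CDH5 and KDR, and the list summed to 119 CPM and 94.2 CPM, nearly all from PECAM1. Of 8 HEK293 markers, 4 were at 0 in both, among them KRT8 and EPCAM, and the list summed to 28.1 CPM and 10.5 CPM, of which GAL, with a log2 fold change of -1.43, made nearly all. All 13 mitochondrially encoded mRNAs were lower in the UNC5B-labelled library, and their share of the reads was 6.05% in Vector and 4.82% in the other library. The part of these differences in the results below was not tested.

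In a growing culture most of these RNAs accumulate in G2 and mitosis. Their genes are held off in quiescent and G1 cells by the DREAM complex at a CHR element (TTTGAA or TTCGAA) and are switched on later by B-MYB and FOXM1, with NF-Y at CCAAT boxes. After anaphase the ubiquitin ligase APC/C removes many of the proteins. A lower level in bulk RNA can come from fewer cells in mitosis or from less RNA per cell, and these cannot be told apart here.

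Because the genes share this control, their promoters were read for those letters on both strands. RefSeq sequences (GRCh38.p14) from 250 bases before to 50 bases after the start were matched by symbol for 45 of the 54 genes. CCAAT was found in 35 of them (77.8%) and in 39.7% of 27305 genes with such a sequence. TTTGAA or TTCGAA was found in 32 (71.1%) and in 19.5% of those genes, and both in 1 window in 27 (60.0%) and 7.85%. Among tested genes these shares were 43.4%, 15.6% and 6.58%. The E2F sequence TTCCCGCC or TTTCCCGC was found in 5 (11.1%), in 4.77% of those genes and in 7.94% of the 10009 of them that were tested; these 2 strings overlap, and a site that holds both counts once. A match is a description of the letters and not a bound site. The 150 bases before the start are printed for 2 genes that were higher and 2 that were lower in the UNC5B-labelled library, so that the motifs can be compared between the directions. They are written 5′ to 3′ on the strand of the gene, with every copy of these motifs in capitals; ATTGG and TTCAAA are the same motifs on the opposite strand. MKI67 is read from chr10:128126424-128126573 (minus strand), CENPF from chr1:214603045-214603194 (plus), CENPA from chr2:26785906-26786055 (plus) and CDC20 from chr1:43358831-43358980 (plus).
MKI67: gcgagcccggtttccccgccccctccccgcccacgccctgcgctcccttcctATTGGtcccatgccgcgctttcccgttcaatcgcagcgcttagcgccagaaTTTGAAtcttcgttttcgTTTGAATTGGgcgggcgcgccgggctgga
CENPF: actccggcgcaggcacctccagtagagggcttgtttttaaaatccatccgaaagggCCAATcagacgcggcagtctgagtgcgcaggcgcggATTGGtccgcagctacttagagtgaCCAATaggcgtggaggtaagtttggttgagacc
CENPA: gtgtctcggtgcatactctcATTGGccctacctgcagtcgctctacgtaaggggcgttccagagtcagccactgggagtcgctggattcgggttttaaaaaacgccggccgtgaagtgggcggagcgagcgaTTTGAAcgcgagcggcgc
CDC20: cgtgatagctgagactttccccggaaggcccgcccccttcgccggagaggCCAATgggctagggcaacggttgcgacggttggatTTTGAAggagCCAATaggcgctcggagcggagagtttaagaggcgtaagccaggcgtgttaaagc
MKI67, CENPA and CDC20 hold both motif types in these bases, and CENPF holds CCAAT alone. MKI67, CENPA and CDC20 thus share the letters while their log2 fold changes, given below, have different signs. Over the set, the 35 genes with CCAAT had a median of -0.36 in log2 fold change and the 10 without it of -0.10. The 32 genes with TTTGAA or TTCGAA had a median of -0.32 and the 13 without it of -0.41.

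All 54 genes passed the filter of at least 10 reads over both libraries, the least with 420 reads. Their log2 fold changes, UNC5B-labelled library over Vector after TMM scaling, ran from -1.20 in UBE2C to 1.10 in MIS12, with a median of -0.32. The median over all 15384 tested genes was -0.01. The value was below 0 for 41 of the 54 genes, against 50.6% of all tested genes and 51.1% of those with at least 420 reads. The interval from the reads lay wholly below 0 for 33 genes, wholly above 0 for 10 and spanned 0 for 11. Among all tested genes it lay below 0 for 26.3% and above 0 for 25.1%. Among the 8641 genes with at least 420 reads, the count of the least-read gene of the set, those shares were 35.4% and 33.6%.

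A 1.5-fold change, 0.58 on the log2 scale, served as the threshold. By this rule 9 genes were lower, where the background of all tested genes is 12.5%, and 2 genes were higher, where it is 12.9%. The lower genes were 7 under library totals, 5 with FPKM and 1 added, and 12 with either length and GC trend subtracted, and the calls of CDC20, SPC25, SPC24 and CENPI were lost under 1 or more of these settings. Among genes with at least 420 reads the backgrounds are 6.99% and 7.72%. The 9 lower genes are 16.7% of the set and the 2 higher genes are 3.7%. The exons of CENPA, NUSAP1, KIF20A, SPC24 and MIS12 among these 11 genes overlap another gene, and without the 16 genes of the set with such an overlap 5 of the 38 left were lower and 1, MKI67, was higher. ANLN, with a log2 fold change of -0.58, lay just short of the threshold. At 2-fold, UBE2C was the single lower gene (background 4.79%) and MIS12 the single higher gene (background 5.15%). At a lower threshold of 0.322 on the log2 scale, 26 were lower (background 25.2%) and 4 were higher (background 24.7%). The shift of the set was thus spread over many genes, each lower by less than 2-fold, apart from UBE2C. Added up, the 54 genes held 76497 Vector reads and 82446 in the UNC5B-labelled library, which is 5580 CPM and 5270 CPM. The log2 fold change of the summed reads was -0.13. Without MKI67 and TOP2A, which hold many of the reads, it was -0.20.

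**Figure D1:**
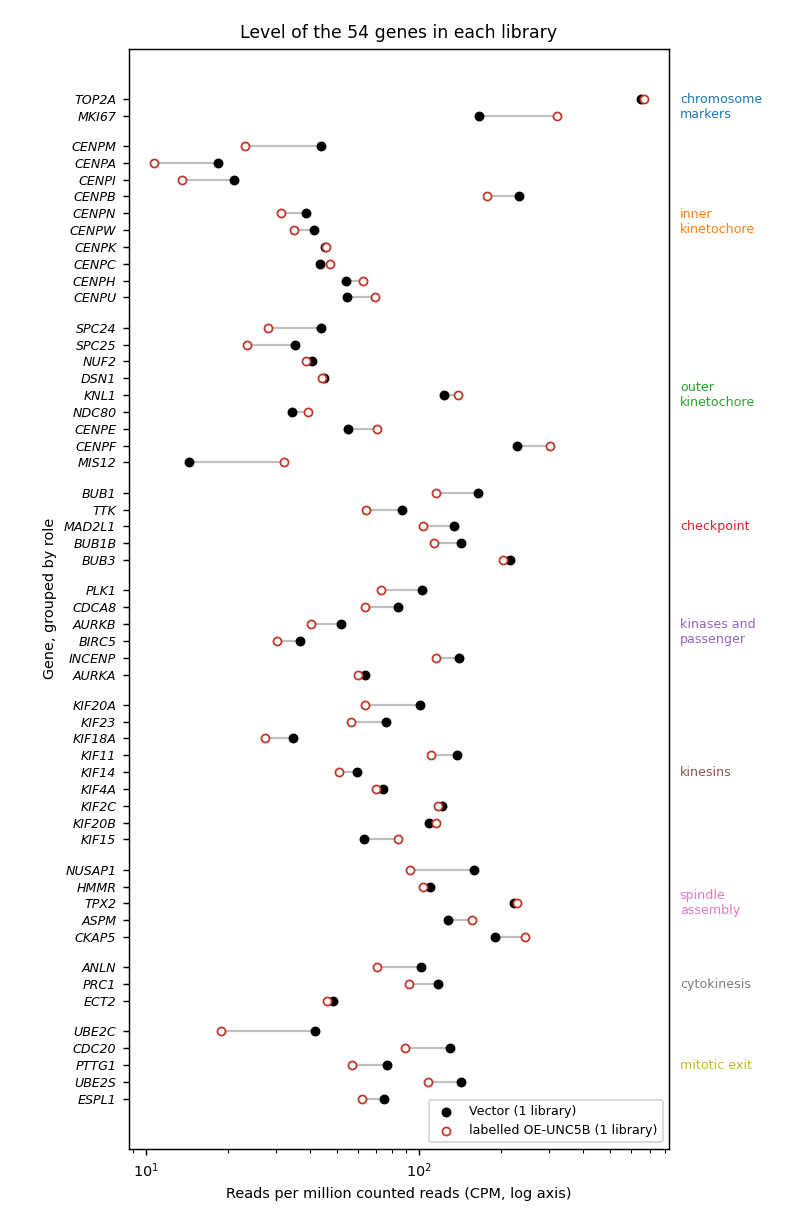
Level of each of the 54 genes in Vector (filled) and in the UNC5B-labelled library (open), in CPM on a log axis, with genes ordered by log2 fold change within each role. Each point is 1 library. The open point lies to the left of the filled point for 38 genes, widest for UBE2C, and to the right for 16, widest for MIS12 and MKI67.

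The chromosome markers are the proteins most often used to count cycling cells, and they did not move together. MKI67, the antigen of the Ki-67 stain and the surfactant of mitotic chromosomes, lies on chromosome 10 from 128096659 to 128126423. It had 2288 reads in Vector and 5024 in the UNC5B-labelled library, a level of 167 CPM and 321 CPM. Its log2 fold change was 0.90 (95% interval 0.83 to 0.97), or 1.86-fold higher. TOP2A, the topoisomerase that untangles sister chromatids, had the highest level of the set with 8919 and 10484 reads, and 89.2 and 92.0 in the deposited FPKM, which are scaled per kilobase. Its log2 fold change was -0.00 (-0.04 to 0.04), and its sign changed with library totals or DESeq2 size factors.

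The centromere and inner kinetochore genes leaned lower, with 7 of 10 below 0 and a median log2 fold change of -0.33. CENPA, the histone H3 variant that marks the centromere, had 253 reads in Vector and 167 in the UNC5B-labelled library. Its log2 fold change was -0.83 (-1.13 to -0.55). Part of its exons, 138 nt, is shared with SLC35F6 on the same strand, so its counts are uncertain to that extent. CENPB, which binds alpha satellite DNA, was the most abundant of this role per length, at 81.9 and 62.5 FPKM, and had a log2 fold change of -0.44 (-0.51 to -0.37). CENPC, the scaffold that links CENPA to the outer kinetochore, had 597 and 739 reads and an interval that spanned 0 (-0.09 to 0.23).

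The subunits CENPH, CENPI, CENPK and CENPM bind each other in the constitutive centromere network, and their RNAs were spread widely. CENPM had 602 reads in Vector and 362 in the UNC5B-labelled library, and its log2 fold change of -0.97 (-1.16 to -0.78) was the lowest of the role. CENPI had 288 and 213 reads and a log2 fold change of -0.67 (-0.93 to -0.41). CENPK had 620 and 716 reads with an interval that spanned 0 (-0.19 to 0.13), and CENPH had 740 and 975 reads and a log2 fold change of 0.16 (0.02 to 0.30). The intervals of CENPI and CENPM lay wholly below those of CENPH and CENPK. CENPU had the highest value of the role, 0.30 (0.17 to 0.44), with 747 and 1085 reads; 520 nt of its exons lie opposite PRIMPOL on the other strand, and the use of strand in the counting is not given in the sources used here. CENPN and CENPW, the remaining members, had log2 fold changes of -0.36 and -0.29 with intervals below 0.

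The outer kinetochore genes, of the layer that faces the microtubules, were the one role of these kinetochore layers with a median above 0, at 0.13 over 9 genes. This sign did not hold when the trend on length and GC content over all genes was subtracted, which gave a median of -0.12. The NDC80 complex is a rod made of NDC80 and NUF2 at the microtubule end and SPC24 and SPC25 at the kinetochore end. NDC80 had 471 reads in Vector and 612 in the UNC5B-labelled library, a log2 fold change of 0.14 (-0.03 to 0.32). NUF2 had 556 and 606 reads, a log2 fold change of -0.11 (-0.28 to 0.06). SPC24 had 603 and 439 reads and SPC25 had 481 and 367 reads, with log2 fold changes of -0.69 (-0.88 to -0.52) and -0.63 (-0.83 to -0.43). The 2 subunits at the kinetochore end thus had intervals wholly below those of the 2 subunits at the microtubule end.

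MIS12 and DSN1 belong to the complex that holds NDC80 on the centromere. MIS12, on chromosome 17 from 5486285 to 5490814, had the highest log2 fold change of the set and, in Vector, its lowest level per length. It had 198 reads in Vector and 501 in the UNC5B-labelled library, or 1.72 and 3.83 FPKM, and was 2.14-fold higher with a log2 fold change of 1.10 (0.86 to 1.35). Of its exons, 9.53% lie opposite DERL2, whose own reads were 319 and 313. DSN1 had 615 and 691 reads and a log2 fold change of -0.07 (-0.23 to 0.09). The other subunits of this complex, named after their values were seen, were NSL1 at 0.50 (0.30 to 0.70) and PMF1 at -0.55 (-0.77 to -0.34), so the 4 RNAs did not move together.

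The genes with the longest main transcripts in the outer kinetochore had values above 0, which shrank or turned once the length and GC trend was subtracted. CENPF, a coiled-coil protein of the G2 nuclear matrix and kinetochore, had 3145 reads in Vector and 4712 in the UNC5B-labelled library, a log2 fold change of 0.35 (0.28 to 0.41), or 0.20 with the trend subtracted and 0.081 with the main transcript in that trend. CENPE, the kinesin that carries chromosomes to the spindle equator, had 755 and 1102 reads and a log2 fold change of 0.31 (0.17 to 0.44), or 0.0914 and 0.0188 by those trends. KNL1, the platform for checkpoint proteins, had 1691 and 2174 reads and a log2 fold change of 0.13 (0.03 to 0.22), or -0.18 and -0.15.

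**Figure D2:**
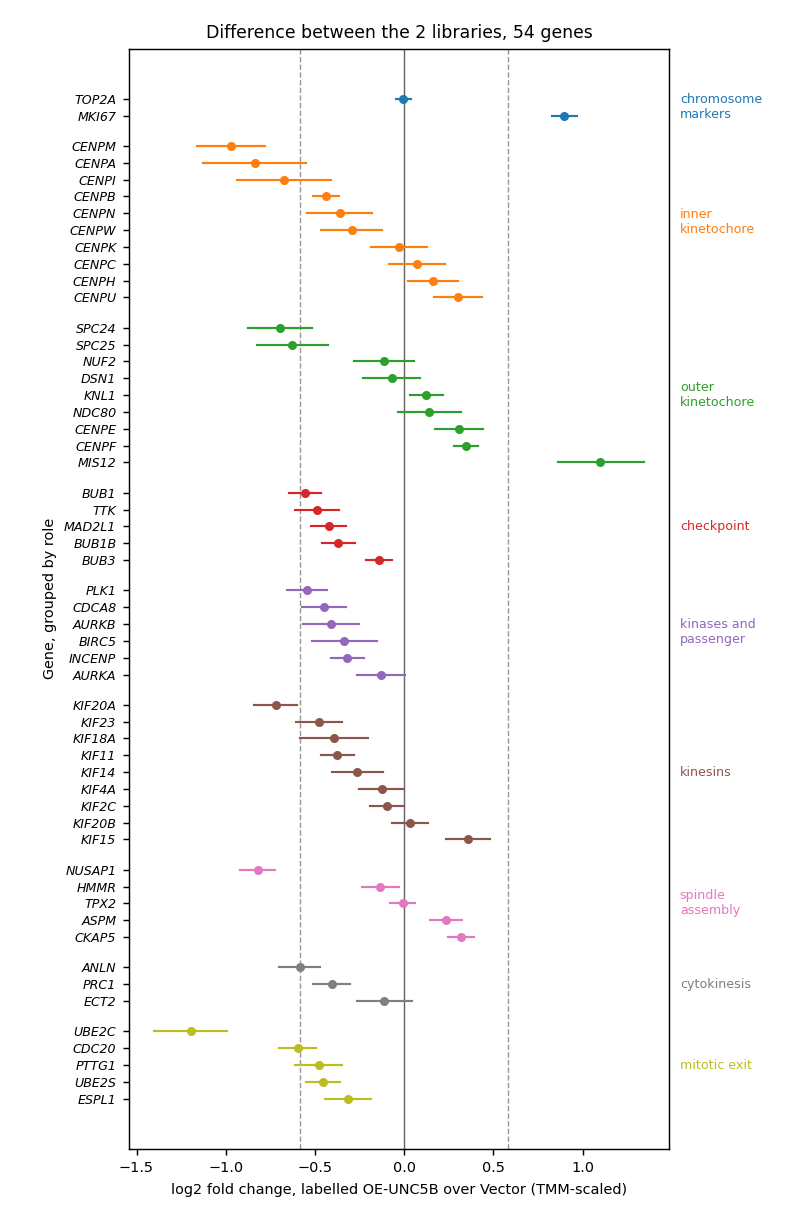
Log2 fold change of each gene (point) with its 95% interval from the reads (line), by role, with dashed lines at a 1.5-fold change. Every checkpoint and mitotic exit gene has its interval left of 0, while outer kinetochore genes lie on both sides.

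The spindle checkpoint holds anaphase back until each kinetochore is attached. All 5 of its genes were lower with intervals wholly below 0, and their median was -0.42. BUB1, the kinase at the kinetochore, was the lowest, with 2254 reads in Vector and 1805 in the UNC5B-labelled library and a log2 fold change of -0.56 (-0.65 to -0.47). TTK, the kinase also called MPS1, and MAD2L1, the APC/C inhibitor MAD2, had -0.49 and -0.42. BUB1B, or BUBR1, had -0.37. BUB3, which is also bound to other nuclear complexes, was the highest at -0.14 (-0.21 to -0.07), with 2972 and 3174 reads. None of the 5 passed 1.5-fold under TMM scaling, while BUB1 (-0.65) and TTK (-0.62) passed it with the length and GC trend subtracted.

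The mitotic kinases and the chromosomal passenger complex leaned the same way. All 6 genes were lower and 5 had intervals below 0. The passenger complex corrects wrong attachments and joins the kinase AURKB to INCENP, BIRC5 (survivin) and CDCA8 (borealin). Its 4 RNAs had log2 fold changes between -0.45 and -0.32: CDCA8 at -0.45, AURKB at -0.41, BIRC5 at -0.33 and INCENP at -0.32. AURKB had 710 reads in Vector and 630 in the UNC5B-labelled library, and INCENP 1920 and 1814. PLK1, the kinase for mitotic entry and centrosome maturation, was the lowest of the role at -0.54 (-0.66 to -0.43), with 1405 and 1135 reads. AURKA, the centrosomal kinase, was the highest at -0.13 (-0.27 to 0.00), with 873 and 939 reads, and its interval just reached 0.

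Kinesins are microtubule motors, and 7 of 9 were below 0 with a median of -0.26. KIF20A, the motor that brings the passenger complex to the central spindle, had 1385 reads in Vector and 991 in the UNC5B-labelled library and was the single kinesin past 1.5-fold, at -0.72 (-0.84 to -0.60). KIF23, the kinesin of the centralspindlin complex, had 1044 and 884 reads and a log2 fold change of -0.48, which was -0.60 and past 1.5-fold with the length and GC trend subtracted. KIF11, the motor that pushes the spindle poles apart, had 1900 and 1728 reads and a log2 fold change of -0.37. KIF15, which can stand in for KIF11, went the other way with 866 and 1308 reads and a log2 fold change of 0.36 (0.23 to 0.48). KIF18A and KIF14 had -0.39 and -0.26. KIF4A and KIF2C had -0.13 and -0.10, and KIF20B had 0.03 with an interval that spanned 0.

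The spindle assembly genes had a median of -0.01 with values on both sides. NUSAP1, which bundles microtubules near chromosomes, had 2185 reads in Vector and 1457 in the UNC5B-labelled library, a log2 fold change of -0.82 (-0.92 to -0.73). Of its exons, 81.4% also belong to a gene on the same strand in GENCODE 44 that the deposited table does not hold. OIP5-AS1, which that table holds with 1379 and 1432 reads, shares 195 nt on the same strand. The value of NUSAP1 is uncertain to that extent. CKAP5, a microtubule polymerase, had 2607 and 3831 reads and a log2 fold change of 0.32 (0.25 to 0.39). ASPM, a spindle pole protein, had 1761 and 2441 reads and a log2 fold change of 0.23 (0.15 to 0.32). TPX2, the activator of AURKA, was among the most abundant per length, at 61.9 and 63.7 FPKM, and had an interval that spanned 0 (-0.08 to 0.06). HMMR had -0.13 (-0.24 to -0.03).

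The 3 cytokinesis genes were below 0. ANLN, a scaffold of the contractile ring, had 1395 reads in Vector and 1096 in the UNC5B-labelled library, a log2 fold change of -0.58 (-0.70 to -0.47). PRC1, which crosslinks the central spindle, had -0.41. Of its exons, 57.6% also belong to a gene on the same strand in GENCODE 44 that the deposited table does not hold. ECT2, a guanine nucleotide exchange factor of the cleavage furrow, was the highest at -0.11 (-0.27 to 0.04), with 664 and 724 reads.

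The mitotic exit genes had a median of -0.48, and all 5 had intervals wholly below 0. This was the lowest median of the roles under TMM scaling, but with the length and GC trend subtracted it was -0.44, above the checkpoint at -0.55 and cytokinesis at -0.49. UBE2C, the E2 enzyme with which APC/C starts ubiquitin chains, lies on chromosome 20 from 45812576 to 45816957. It had 574 reads in Vector and 295 in the UNC5B-labelled library, 41.9 CPM and 18.9 CPM, and was 2.29-fold lower. Its log2 fold change of -1.20 (-1.40 to -0.99) was the lowest of the 54. UBE2S, the E2 enzyme that extends those chains, had 1962 and 1689 reads and a log2 fold change of -0.45 (-0.55 to -0.36), so the 2 enzymes that work in sequence had intervals that did not overlap. CDC20, the activator of APC/C and the target of the checkpoint, had 1790 and 1394 reads and a log2 fold change of -0.60 (-0.70 to -0.50). It was short of 1.5-fold under library totals (-0.55), DESeq2 size factors (-0.56) and the length and GC trend (-0.44). PTTG1, or securin, had 1050 and 888 reads and a log2 fold change of -0.48 (-0.61 to -0.35). ESPL1, the protease separase that securin inhibits, was the highest of the role at -0.32 (-0.44 to -0.19), with 1022 and 968 reads.

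Long and short genes of the set were compared next. The length behind the deposited FPKM, recovered from count and FPKM, ran from 1238 to 29178 nt. It exceeded the union of the GENCODE 44 exons for 49 of the 54 genes, so the main transcript of GENCODE 44 was used beside it, and this ran from 715 to 12716 nt. By the first length, the 2 genes under 2 kb had a median of -0.46 in log2 fold change, the 10 genes of 2 to 4 kb of -0.47 and the 42 genes over 4 kb of -0.20. By the main transcript, the 11 genes under 2 kb had a median of -0.48, the 23 genes of 2 to 4 kb of -0.39 and the 20 genes over 4 kb of -0.06. All 5 genes with a main transcript over 8 kb, MKI67, ASPM, CENPF, KNL1 and CENPE, had intervals wholly above 0, with a median of 0.31. Among all tested genes of that length with at least 420 reads, 67.1% of 726 had intervals wholly above 0 and the median was 0.29. The median of the 5 genes was near this, while MKI67 lay above it at 0.90. Just under 8 kb, BUB3 (7703 nt) and KIF14 (7291 nt) had intervals wholly below 0, and CKAP5 (7172 nt) had one wholly above 0. The sign shared by all 5 genes thus depends on the cut at 8 kb. Of the 8 genes under 1.5 kb, PTTG1, UBE2C, CENPW, CENPM, AURKB, SPC25, CENPH and CENPA, 7 had intervals wholly below 0, and CENPH had one above it, with a median of -0.55 over the 8. Among tested genes of that length with at least 420 reads, 60.6% of 1355 had intervals wholly below 0 and the median was -0.24. Spearman's rho between length and log2 fold change across the 54 genes was 0.42 with the first length and 0.45 with the main transcript. Genes are not independent replicates, and all points share the same 2 libraries.

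The same direction was present over all genes. Tested genes had medians of -0.13, -0.04 and 0.14 for main transcripts under 2 kb, of 2 to 4 kb and over 4 kb, and a rho of 0.20. Among genes with at least 420 reads these medians were -0.20, -0.05 and 0.15, and rho was 0.40. Each length class of the set thus lay lower than the same class of all genes, by main transcript. GC content was lower in longer genes in the set, with a rho of -0.332. The log2 fold change followed GC content about as closely as length in the set, with a rho of -0.425, and over all tested genes with a GC value this rho was -0.18. With the trend on length and GC content over all tested genes subtracted, the median of the set was -0.29 and 43 of 54 genes were below 0. MKI67 lies on the long end of this trend, which gave 0.10 of its 0.90 when fitted on the length behind the FPKM and 0.24 when fitted on the main transcript. UBE2C lies on the short end, where the trends gave -0.10 and -0.13 of its -1.20. Both trends were fitted on all tested genes, where rho with main transcript length was 0.20, against 0.40 among genes with at least 420 reads. Tested genes under 1.5 kb with at least 420 reads had a median of -0.24. No trend was fitted on genes of that depth alone, so how these parts would change was not tested. ASPM, like KNL1, was below 0 with the main transcript trend subtracted, at -0.0809. After subtraction rho with length was 0.25 over the set.

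**Figure D3:**
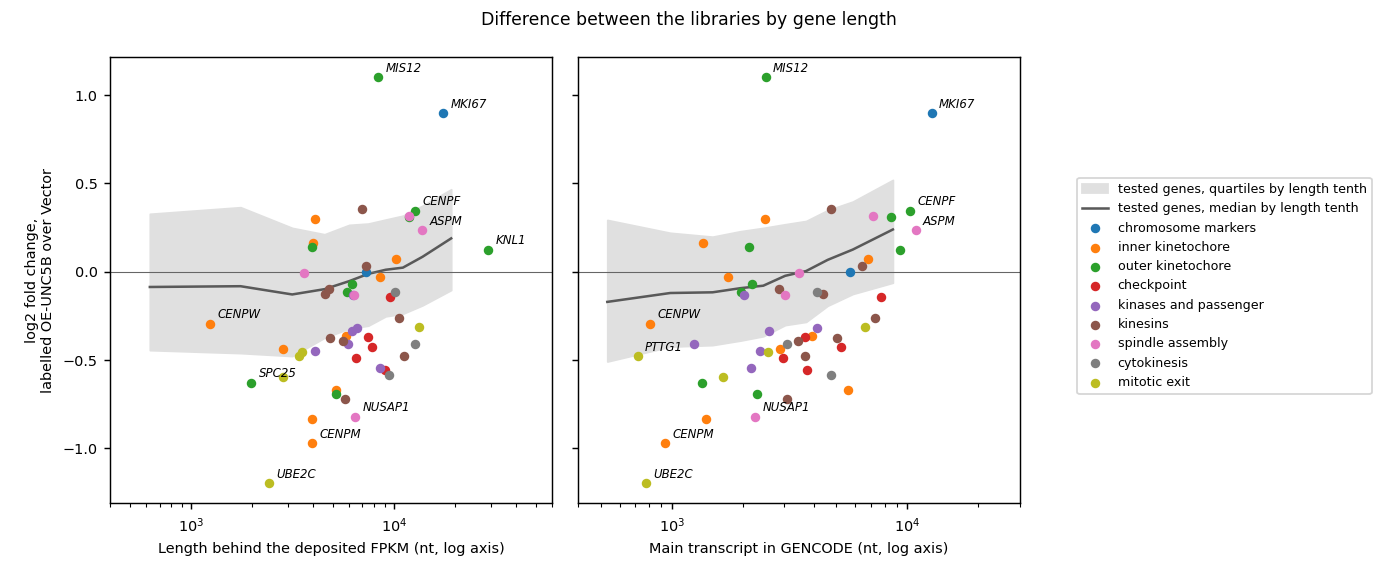
Log2 fold change against the length behind the deposited FPKM (left) and the GENCODE main transcript (right), in nt on log axes, with 1 point per gene coloured by role; the line and band are the median and quartiles of all tested genes in 10 equal groups by length. The 54 genes slope upward with length as the line does, and most lie under the line.

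Genes of the same machinery outside the set were read from 5 lists written from textbook knowledge. Over the 109 genes of these lists, all tested, the median log2 fold change was -0.06. By 1.5-fold, 8 (7.34%) were lower and 3 (2.75%) were higher, beside backgrounds of 12.5% and 12.9% of all tested genes. Among genes with at least 420 reads, which not all list genes reach, the backgrounds are 6.99% and 7.72%. The other kinetochore and centromere genes were closest to the set, with 23 of 28 below 0 and a median of -0.17. In this list 2 genes were lower by 1.5-fold. ZWILCH, of the RZZ complex of the checkpoint, had 866 reads in Vector and 567 in the UNC5B-labelled library, a log2 fold change of -0.85. SKA1, which follows depolymerising microtubules, had 470 and 312 reads, a log2 fold change of -0.83. The other spindle and cytokinesis genes had a median of -0.07, with 3 of 30 lower by 1.5-fold: FAM83D at -0.82, the minus-end kinesin KIFC1 at -0.72 and DLGAP5, a microtubule stabiliser, at -0.66. DLGAP5 was short of 1.5-fold with FPKM and 1 added, which left 2 genes, and CKAP2L was also past it with either trend subtracted. With the main transcript in the trend CEP55 was past it too, which made 5 genes, and SKA3 of the kinetochore list was past it with either trend.

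The anaphase-promoting complex, which UBE2C, UBE2S and CDC20 serve, had a median of -0.01 over 16 genes. Its small subunit ANAPC11, which holds the catalytic RING, had 356 and 274 reads and a log2 fold change of -0.61. FZR1, the activator CDH1 of late mitosis and G1, had 1011 and 790 reads and -0.59. Cohesin and condensin went the other way, with 13 of 19 above 0 and a median of 0.14. NIPBL, the cohesin loader, had 1979 and 3893 reads and a log2 fold change of 0.74. STAG2 and RAD21, subunits of the cohesin complex, had 0.62 and 0.61. None of the 3 was past 1.5-fold with either trend subtracted. With the trend on length and GC content subtracted, the median of this list was 0.03, and with the main transcript in that trend it was -0.04. The regulators of these promoters had a median of -0.04 over 16 genes. MYBL2, which encodes B-MYB, had 4732 and 3674 reads and was the single regulator past 1.5-fold, at -0.60. MYBL2, ANAPC11 and FZR1 were short of 1.5-fold under library totals, DESeq2 size factors, FPKM and either trend. FOXM1 had 1351 and 1324 reads and a log2 fold change of -0.27 (-0.38 to -0.16), named after its value was seen.

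**Figure D4:**
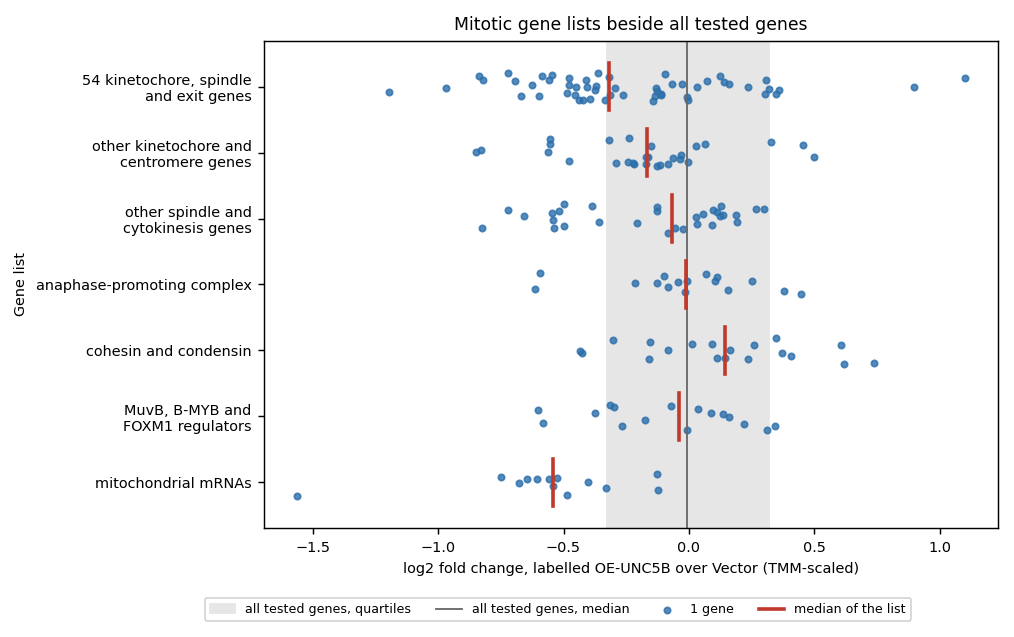
Log2 fold change of the genes (points) in the 54-gene set, in 5 other mitotic lists and in the mitochondrially encoded mRNAs, with the median of each list (vertical bar) and the median and quartiles of all tested genes (line and band). The bar of the 54 genes sits at -0.32, that of cohesin and condensin at 0.14 and that of the mitochondrial mRNAs at -0.54.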

How the data were processed

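Total RNA of MOLM-13 cells was made into libraries with the VAHTS Universal V6 kit and sequenced on the Illumina HiSeq platform, 1 library for Vector and 1 for OE-UNC5B, with reads compared with GRCh38. The authors deposited 1 table that holds raw read counts per gene and FPKM, the reads per kilobase of gene and per 1000000 counted reads, for each library. The submitters' processing notes name bcl2fastq 2.19, HISAT2 2.0.4 and StringTie 1.3.0, without roles. The annotation release, the counting settings and the use of strand are not given in the sources used here.

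From the deposited counts, log2 fold changes were computed with TMM scaling (edgeR 4.0.16 in R 4.3.3) and 0.5 reads added, for 15384 genes whose reads in the libraries summed to 10 or more. Intervals are exact binomial (Clopper-Pearson, scipy 1.17.1) and cover counting error only; reads are not independent molecules. With 1 library per group, edgeR's quasi-likelihood test could not be fitted, and a 1.5-fold change stands in for a call. The scripts were tested on simulated data. Gene coordinates, main transcripts and overlaps are from GENCODE 44 (GRCh38). Scaling by library totals or by DESeq2 1.42.0 size factors was tried in its place, as were other reads added, filters, thresholds, FPKM values, and trends on length and GC content.

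The 54 genes and all lists were chosen with earlier results of these data known. Named with values were MKI67, UBE2C and UNC5B, genes past 1.5-fold, the lowest and highest of each role, the 3 shortest and 3 longest genes, and of each list up to 4 genes past 1.5-fold with at least 100 reads. Other genes of the set are named to account for it, after their values were seen.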

Additional observations from a re-analysis of the deposited data

How the results depend on the processing

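Of 208 summary values recomputed under the alternatives, 188 stayed close and 20 moved, where close means within 1.5 times for a count, 0.1 for a rho and, for a median, the typical half-width of its genes' intervals. Of 163 medians among them, 16 changed sign: outer kinetochore under both trends, cohesin and condensin under the main transcript trend, and the spindle assembly, anaphase-promoting complex and regulator medians, all within 0.04 of 0. The genes lower at 1.5-fold were 5 with FPKM and 1 added, 26 at the lower threshold of 0.322 in log2 and 1 at 2-fold; those higher were 4 at that lower threshold and 1 at 2-fold, which follows from the thresholds. Without the 16 genes whose exons overlap another gene, an alternative chosen after seeing the data, 5 were lower and 1 higher at 1.5-fold and 27 were below 0, of the 38 left. With the trend on length and GC content subtracted, rho with length was 0.25, and the medians were 0.34 for the chromosome markers, -0.12 for the outer kinetochore, -0.55 for the checkpoint, -0.43 for the kinesins and 0.0291 for cohesin and condensin. With the main transcript in that trend, also chosen after seeing the data, these were 0.24, 0.24, -0.0839, -0.59, -0.49 and -0.0398. The cause of these moves was not tested. CENPK, TOP2A and TPX2 changed sign under library totals, DESeq2 size factors and both FPKM settings. CENPC, KIF20B and KNL1 changed sign under either trend, TPX2 under the first and ASPM under the second. Of the 11 genes past 1.5-fold, 9 were still past it under library totals and 7 with FPKM and 1 added. CDC20 was lost under every other scaling, both FPKM settings and both trends, SPC25 under library totals and FPKM, and SPC24 and CENPI with FPKM and 1 added. Under both trends 12 genes were lower by 1.5-fold, with ANLN, BUB1 and TTK gained under both, KIF23 under the first and MAD2L1 under the second. Protein length was not run, and the coding length gave a rho of 0.45. No paired analysis was possible because each group holds 1 library, and for the same reason no replicate could be left out. Depth limits the genes with few reads most, such as CENPA with 420 reads over both libraries.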
